A study of Arabidopsis thaliana with 6 samples.

Results

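In shoots of the Arabidopsis pvip1 pvip2 double mutant, 45 genes that were already well expressed in the wild type stood clearly higher. They encode a receptor kinase and other signalling proteins, proteinase inhibitors, lectins, lipid transfer proteins and enzymes of the cell wall, of detoxification and of central metabolism. Each had a log2 signal of at least 6 on all 3 Col-0 arrays, and its lowest mutant value lay at least 1, which is 2-fold, above its highest Col-0 value. Of 22746 probe sets other than controls, 6557 reached that level and 103 of these (1.57%) also met the gap, 53 of them without a gene name here. Among the 3263 at that level that are named with 1 gene, 50 (1.53%) met it. From these, 5 were left out because they are peroxidases (AT5G64120 and AT2G37130), PYK10 or UGT genes (UGT72E1 and UGT85A2), and 45 of 13513 named probe sets remained. The same rule turned downward, from the same Col-0 level, was met by 113 probe sets, 56 of them named.

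The study compared pvip1 pvip2 seedlings with Col-0, the standard laboratory accession, on 6 Affymetrix ATH1 arrays, 3 for each genotype, labelled as biological replicates. Seedlings grew on MS agar at 21°C with 16 h of light and were taken 10 days after germination. Roots were taken off the wild type, and in the mutant the vestigial hypocotyl was severed so that it too was wounded. The alleles of pvip1 and pvip2 are not given in the sources used here. PVIP genes encode PHD-finger proteins, known also as OBERON proteins, which bind chromatin and are needed for the root and shoot meristems. In RNA of whole shoots, more cells of a type and more RNA per cell cannot be told apart.

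The roles of the genes span the surface and the inside of the plant cell. Receptor kinases at the plasma membrane sense molecules of microbes or of damaged walls and pass the signal to cytoplasmic kinases and to calcium. Secreted inhibitors and oxidases act in the wall and the apoplast, and lectins bind carbohydrates. Glutathione transferases, dehydrogenases and metallothioneins handle reactive compounds and metals inside the cell.

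Values below are the deposited log2 signals, on which a step of 1 is a doubling, given in the order of replicates 1, 2 and 3. A change is the mutant mean minus the Col-0 mean, with the standard error (SE) of the limma fit over all tested probe sets. Since these values chose the genes, changes are given as a description without a test, and the separation of the genotypes is a property of the choice. All 45 were called by limma at an adjusted p under 0.05, where 20.5% of the 13648 tested probe sets were called in either direction and 10.4% were called higher, or 7.76% higher among the 6557 at the Col-0 level of the rule. The genotypes were separated in this direction in 17.4% of tested probe sets and in 15.5% at that level. Nothing is read from the count of 45. Over the 45 genes the change ran from 1.32 to 4.29 with a median of 1.91, or from 2.49-fold to 19.5-fold with a median of 3.76-fold. Over all tested probe sets the median change was -0.05. The means of the 45 lay between 6.29 and 10.03 in Col-0 and between 7.75 and 11.89 in the mutant.

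2 Col-0 arrays stood apart in other respects. OBE1 (AT3G07780), a PVIP gene, was at 2.54, 2.61 and 2.53 in the mutant. The array labelled Col-0 replicate 1 was as low, at 2.42, which goes against its label, whereas the remaining Col-0 arrays reached 5.08 and 5.17. The difference between the 3' and 5' probe sets of GAPDH, a sign of RNA quality, was 2.31 (log2) in Col-0 replicate 3 and 0.55 to 1.08 elsewhere. Leaving out the array with low OBE1 gave the 45 genes a median change of 2.00, and leaving out Col-0 replicate 3 gave 1.88. Because fewer arrays make the rule easier to meet, 56 genes met it without Col-0 replicate 1 and 52 without Col-0 replicate 3, and all 45 were among them in both cases. The fluidics module, even for each mutant array and odd for each Col-0 array, cannot be told apart from genotype.

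**Figure D1:**
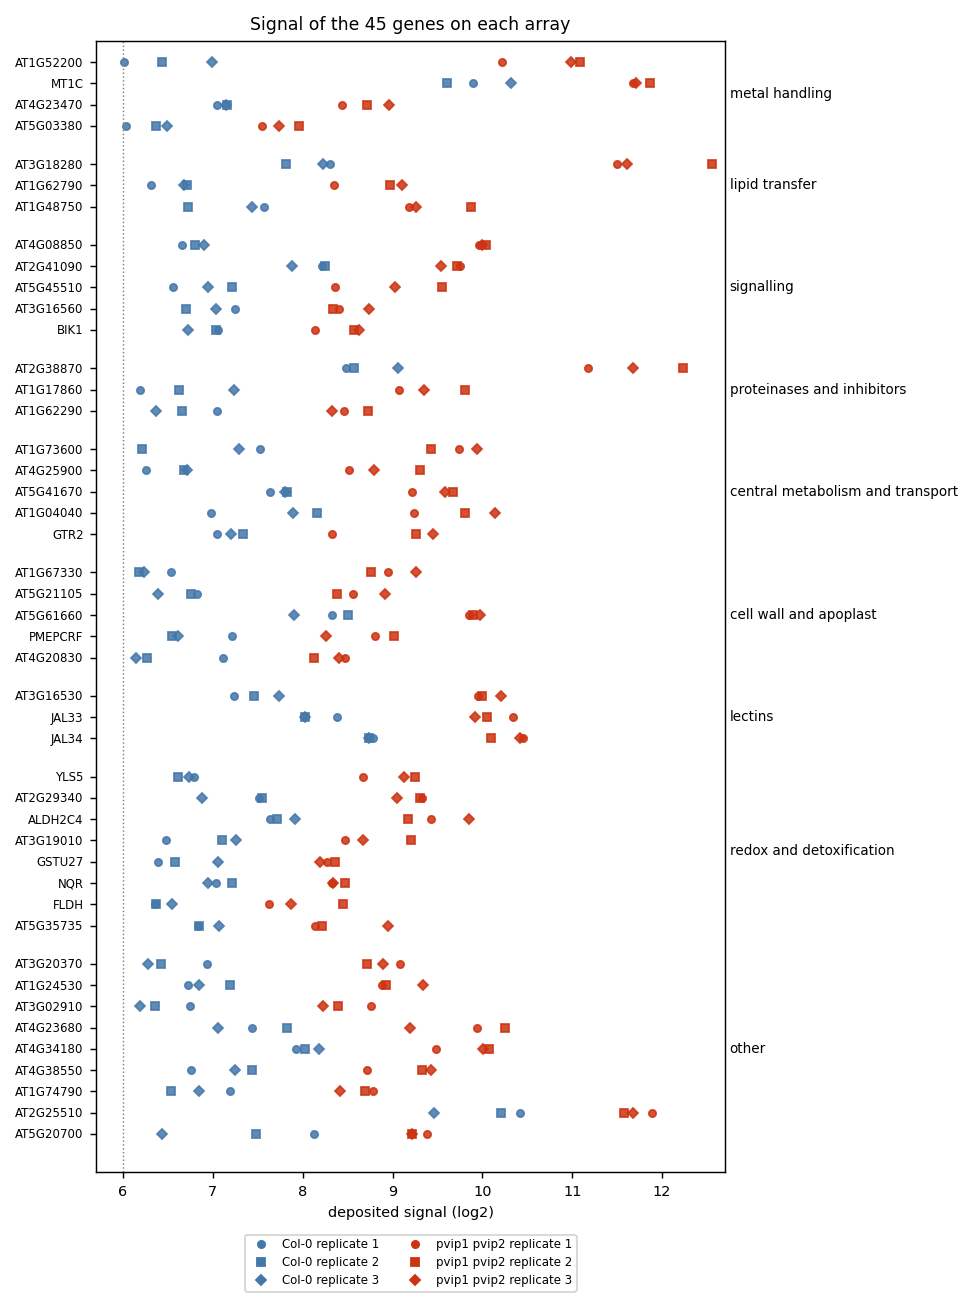
Deposited log2 signal of each of the 45 genes (rows, grouped by function) on the 3 Col-0 arrays (blue) and the 3 pvip1 pvip2 arrays (red), with the marker shape giving the replicate. The red and blue points of a gene lie at least 1 apart, as the rule requires, and the widest separations are those of AT1G52200, AT3G18280 and AT4G08850.

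Among genes of signalling, the leucine-rich repeat receptor kinase AT4G08850 stood out. Known as MIK2, it perceives small secreted peptides of the SCOOP family and takes part in wall damage and defence responses. Its signal was 9.96, 10.04 and 9.99 in the mutant and 6.65, 6.80 and 6.90 in Col-0. The change was 3.22 (SE 0.14), or 9.29-fold, and with an SD of 0.04 (n = 3) its mutant arrays were closer together than those of any other of the 45 genes. BIK1, the cytoplasmic kinase that relays signals from several immune receptors, was at 8.14, 8.57 and 8.63 in the mutant and at 7.06, 7.03 and 6.72 in Col-0. Mutant replicate 1 was the lowest of the mutant arrays, and the change was 1.51 (SE 0.19).

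AT2G41090, a calmodulin-like protein that binds calcium, was at 9.75, 9.72 and 9.54 in the mutant and 8.21, 8.25 and 7.88 in Col-0, a change of 1.56 (SE 0.15). AT5G45510, a leucine-rich repeat protein, was at 8.36, 9.55 and 9.03 in the mutant and 6.55, 7.21 and 6.94 in Col-0, a change of 2.08 (SE 0.31). Replicate 1 was the lowest and replicate 2 the highest array of both genotypes for AT5G45510. AT3G16560, of the protein phosphatase 2C family, had a change of 1.51 (SE 0.20).

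Genes of 2 kinds of small proteinase inhibitor were higher. Such inhibitors block digestive or pathogen proteinases. AT2G38870, an inhibitor of the potato inhibitor I type, was at 11.17, 12.23 and 11.68 in the mutant and 8.48, 8.57 and 9.06 in Col-0, a change of 2.99 (SE 0.27), or 7.96-fold. AT1G17860, of the Kunitz trypsin inhibitor type, was at 9.07, 9.81 and 9.35 in the mutant and 6.19, 6.62 and 7.23 in Col-0, a change of 2.73 (SE 0.29). In both inhibitor genes mutant replicate 2 was the highest mutant array and Col-0 replicate 3 the highest Col-0 array. The aspartic protease gene AT1G62290 was at 8.46, 8.73 and 8.33 against 7.05, 6.65 and 6.37, a change of 1.82 (SE 0.21), so a gene of a proteinase stood higher beside those of the inhibitors.

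The 3 lectin genes encode carbohydrate-binding proteins. AT3G16530, a lectin of the legume type, was at 9.95, 10.00 and 10.21 in the mutant and 7.23, 7.46 and 7.74 in Col-0, a change of 2.57 (SE 0.17). JAL33 was at 10.34, 10.05 and 9.92 against 8.38, 8.02 and 8.03, and JAL34 at 10.45, 10.10 and 10.42 against 8.78, 8.74 and 8.74. Changes of 1.96 (SE 0.17) for JAL33 and 1.57 (SE 0.14) for JAL34 went with a Col-0 SD of 0.20 and 0.03 (n = 3), the latter the smallest Col-0 spread of the 45 genes. JAL22, the other tested jacalin-related lectin gene among those grouped by symbol after the values were seen, stood at 0.07 (SE 0.22, limma adjusted p = 0.8546).

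JAL33 and JAL34 are neighbours in the genome, and their jacalin-related products are known to associate with PYK10, the beta-glucosidase stored in ER bodies. PYK10 itself met the thresholds and was left out by the rule. Its signal was 11.78, 11.76 and 11.80 in the mutant and 10.06, 10.01 and 9.98 in Col-0. NAI2, needed to form ER bodies, was at 8.28, 8.66 and 8.09 against 5.85, 6.79 and 6.63, and missed the rule only because the array labelled Col-0 replicate 1 was under 6. NAI2 rose by 1.92 (SE 0.28, limma adjusted p = 0.002759). NAI1, the transcription factor of the ER body pathway, stood at 5.60, 5.37 and 5.62 against 5.54, 5.46 and 5.37, a difference of 0.07 (SE 0.16, limma adjusted p = 0.8063). These ER body genes were listed after the values were seen, and 5 of 15 have a probe set named with them alone. PYK10 is abundant in roots and was the single measured gene of 11 root markers. EXPA7 and EXPA18, expansins of root hairs, were at 4.29 and 4.23 in pvip1 pvip2 replicate 2 and at 3.10 to 3.63 on the other arrays. Their means fell below the level filter of the tests, 3.81 (log2), so neither was tested. The part of root cells in these values was not tested.

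The 3 named genes of the lipid transfer protein superfamily that met the rule changed by more than 2 on the log2 scale. Lipid transfer proteins are small and secreted, carry lipids and are associated with cuticle and defence. Other genes of this superfamily were not examined as a group, so a change of the whole superfamily was not tested. AT3G18280 was at 11.50, 12.56 and 11.61 in the mutant and 8.30, 7.81 and 8.23 in Col-0, a change of 3.78 (SE 0.28), or 13.7-fold. AT1G62790 was at 8.35, 8.97 and 9.10 against 6.31, 6.71 and 6.68, a change of 2.24 (SE 0.23). AT1G48750 was at 9.18, 9.87 and 9.26 against 7.57, 6.72 and 7.43, a change of 2.20 (SE 0.27). For AT3G18280 and AT1G48750, replicate 2 was the highest of the mutant arrays and the lowest of the Col-0 arrays.

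Genes of the cell wall and apoplast numbered 5, with changes from 1.66 to 2.68. AT1G67330, of the DUF579 family whose known members methylate wall polysaccharides, was at 8.95, 8.76 and 9.26 in the mutant and 6.53, 6.18 and 6.23 in Col-0, a change of 2.68 (SE 0.19), or 1.99 with a pseudocount of 64. AT5G21105, an ascorbate oxidase, which sets the redox state of the apoplast, was at 8.56, 8.38 and 8.92 against 6.82, 6.76 and 6.39, a change of 1.97 (SE 0.20). Here mutant replicate 3 was the highest mutant array for both genes, and replicate 1 the highest Col-0 array. The glycine-rich protein gene AT5G61660 was at 9.85, 9.90 and 9.97 against 8.33, 8.50 and 7.90, a change of 1.66 (SE 0.18).

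Wall pectin is modified by PMEPCRF, a pectin methylesterase, and its fragments are oxidised by AT4G20830, a berberine bridge enzyme-like oxidase. Their changes were 1.90 (SE 0.26) and 1.83 (SE 0.27). Both had their highest Col-0 value, 7.21 and 7.11, in the array labelled Col-0 replicate 1. Of the other pectin methylesterase genes, grouped by symbol after the values were seen, ATPMEPCRB (AT4G02330) rose by 3.95 (SE 0.34, limma adjusted p = 0.0002915), from a mean of 4.43 in Col-0 to 8.38 in the mutant (SD 0.39 and 0.63, n = 3 each). It was below the Col-0 level of the rule. ATPMEPCRD stood at 0.19 (limma adjusted p = 0.4382).

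Redox and detoxification, a group written from background knowledge, held 8 genes whose changes ran from 1.32 to 2.31. YLS5, a DJ-1 family protein named for its expression in yellow leaves, was at 8.67, 9.25 and 9.13 in the mutant and 6.79, 6.61 and 6.73 in Col-0, a change of 2.31 (SE 0.19). It is the neighbour of AT2G38870, the proteinase inhibitor gene described above. AT2G29340, a short-chain dehydrogenase, was at 9.33, 9.30 and 9.05 against 7.51, 7.55 and 6.88, a change of 1.91 (SE 0.21). ALDH2C4, an aldehyde dehydrogenase that makes ferulic and sinapic acid, was at 9.43, 9.17 and 9.85 against 7.64, 7.71 and 7.91, a change of 1.73 (SE 0.20). Replicate 3 was the lowest array of both genotypes for AT2G29340 and the highest of both for ALDH2C4. Of 7 other tested aldehyde dehydrogenase genes, grouped by symbol after the values were seen, 1 was called higher and 0 lower, with a median change of 0.05. That call, ALDH3F1 at 0.59 (SE 0.16, limma adjusted p = 0.03278), was lost without any single array except pvip1 pvip2 replicate 2 (0.0581 to 0.102). With the replicate block ALDH10A9 at 0.60 was also called higher and ALDH11A3 at -1.01 lower (limma adjusted p = 0.0185 and 0.008214).

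The other 5 redox genes had changes between 1.32 and 1.83. GSTU27, a glutathione S-transferase of the tau class, was 1.60 (SE 0.20) higher and NQR, a quinone reductase, 1.32 (SE 0.15) higher, the least change of the 45. For AT3G19010, of the 2-oxoglutarate-dependent oxygenases, the change was 1.83 (SE 0.27). FLDH, a farnesol dehydrogenase, and AT5G35735, a protein with cytochrome b561 and DOMON domains, had changes of 1.55 (SE 0.23) and 1.52 (SE 0.23).

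The group of metal handling, where some genes were placed by family or domain alone, included the one with the greatest change of the 45. AT1G52200, of the PLAC8 family that includes plant cadmium resistance proteins, was at 10.22, 11.09 and 10.98 in the mutant and 6.01, 6.43 and 6.99 in Col-0, a change of 4.29 (SE 0.31), or 19.5-fold, and of 3.55 on the log2 scale with a pseudocount of 64. Its lowest Col-0 value of 6.01, in the array labelled Col-0 replicate 1, was just inside the level required. MT1C, a metallothionein that binds copper and zinc, was at 11.67, 11.87 and 11.71 against 9.89, 9.61 and 10.32, a change of 1.81 (SE 0.18). AT4G23470, also of the PLAC8 family, was at 8.44, 8.71 and 8.96 against 7.05, 7.16 and 7.15, a change of 1.58 (SE 0.17). Within the PLAC8 family the changes thus differed, 4.29 in AT1G52200 and 1.58 in AT4G23470. AT5G03380, with a heavy metal associated domain, had a change of 1.46 (SE 0.19).

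Central metabolism was represented by single steps of several pathways. AT1G73600, a phosphoethanolamine N-methyltransferase on the way to phosphatidylcholine, was at 9.74, 9.43 and 9.94 in the mutant and 7.52, 6.21 and 7.29 in Col-0, a change of 2.70 (SE 0.33). Its Col-0 SD of 0.70 came from the low value in Col-0 replicate 2. AT4G25900, of the aldose 1-epimerase family, was at 8.51, 9.31 and 8.79 against 6.25, 6.68 and 6.71, a change of 2.32 (SE 0.24). AT5G41670, a 6-phosphogluconate dehydrogenase of the oxidative pentose phosphate pathway, was at 9.21, 9.67 and 9.58 against 7.63, 7.82 and 7.80, a change of 1.74 (SE 0.17). Replicate 1 was the lowest array of both genotypes for AT4G25900 and AT5G41670. AT1G04040, an acid phosphatase of the HAD superfamily, had a change of 2.05 (SE 0.34) with Col-0 values between 6.98 and 8.16.

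GTR2, a transporter that loads glucosinolates into the phloem, was at 8.33, 9.26 and 9.45 in the mutant and 7.04, 7.33 and 7.20 in Col-0, a change of 1.83 (SE 0.28). With a gap of 1.00 and a mutant SD of 0.60, the widest of the 45, it only just met the rule. Its closest relative GTR1, which acts in the same transport, was at 8.01, 7.60 and 7.30 in the mutant and 6.43, 4.85 and 5.64 in Col-0. GTR1 rose by 1.99 (SE 0.38, limma adjusted p = 0.00961) from a Col-0 level below that of the rule. Of 6 tested NPF transporter genes other than GTR2, a family grouped by symbol after the values were seen, 3 were called higher and 0 lower, against 10.4% and 10.2% of all tested probe sets. AT1G33440 and AT1G59740 were the others called, at 2.99 (SE 0.19, limma adjusted p = 0.0001151) and 3.07 (SE 0.32, limma adjusted p = 0.0006877). AT3G21670 stood at -1.47 (SE 0.86, limma adjusted p = 0.2753) and was called lower with the replicate block (limma adjusted p = 0.01498). AT2G26690 and AT1G68570, at -0.37 and 0.29, were called in neither fit.

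The last 9 genes fall in no group above, with changes from 1.68 to 2.35. AT3G20370, a TRAF-like protein, was at 9.08, 8.71 and 8.89 in the mutant and 6.93, 6.42 and 6.28 in Col-0, a change of 2.35 (SE 0.21). AT1G24530, with WD40 repeats, was at 8.88, 8.93 and 9.34 against 6.72, 7.19 and 6.85, a change of 2.13 (SE 0.19). AT3G02910, related to the avirulence-induced gene AIG2, was at 8.76, 8.39 and 8.23 against 6.75, 6.35 and 6.19, a change of 2.03 (SE 0.21). AT3G20370 and AT3G02910 were both highest in replicate 1 of each genotype.

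AT4G23680, a major latex protein-like gene of the Bet v 1 class, was at 9.94, 10.25 and 9.19 against 7.44, 7.82 and 7.06, a change of 2.35 (SE 0.30). AT4G34180, of the cyclase family, was at 9.48, 10.07 and 10.01 against 7.92, 8.03 and 8.18, a change of 1.81 (SE 0.19). AT2G25510, a protein of unknown function, was at 11.89, 11.57 and 11.67 against 10.42, 10.21 and 9.46, a change of 1.68 (SE 0.24). In AT4G23680, replicate 2 was highest and replicate 3 lowest in both genotypes. AT4G38550, of the PEARLI 4 family, had a change of 2.01 (SE 0.25), and its probe set is of a type that can match several similar transcripts. AT1G74790, of the sorbosone dehydrogenase family, had a change of 1.77 (SE 0.21). AT5G20700, of the FLZ zinc finger family, was at 9.38, 9.21 and 9.22 in the mutant but at 8.13, 7.48 and 6.43 in Col-0, the widest Col-0 spread of the 45 (SD 0.85, n = 3), and its change was 1.92 (SE 0.38).

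**Figure D2:**
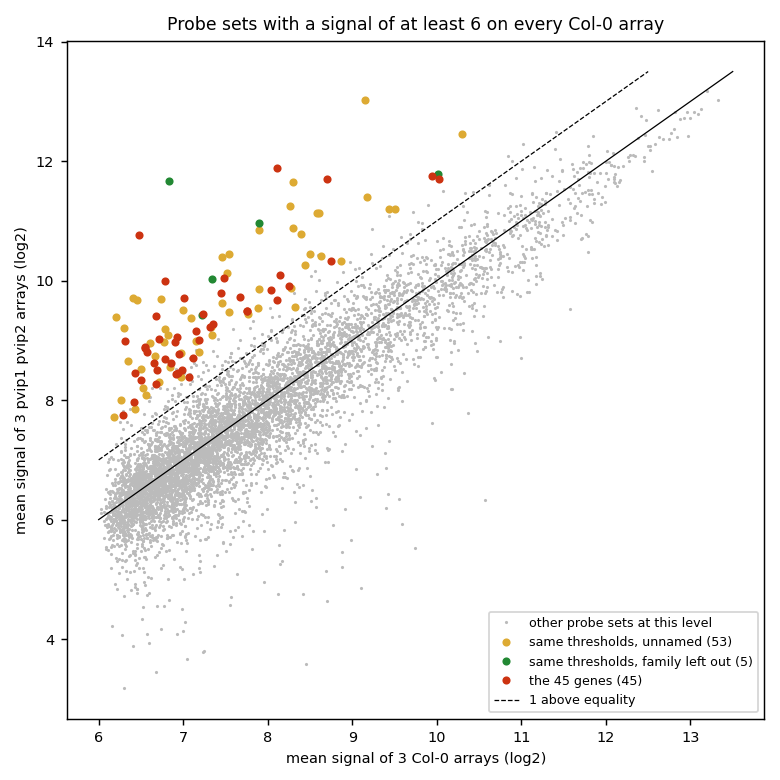
Mean log2 signal of the 3 Col-0 arrays (horizontal) and of the 3 pvip1 pvip2 arrays (vertical) for the 6557 probe sets with at least 6 on every Col-0 array. The 45 genes (red) lie above the dashed line, together with 53 unnamed probe sets (yellow) and the 5 genes left out by family (green).

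At the edge of the gap threshold, AT4G20830 and GTR2 lay just inside at 1.02 and 1.00, and AT1G04040, AT5G03380 and PMEPCRF at 1.08, 1.07 and 1.05. Just outside lay AT3G22850 and SGT1A at 0.99 each, AT5G66490 at 0.98, AT1G09310 at 0.92 and AT3G28940 at 0.90. SGT1A, a co-chaperone of immune receptors, was at 8.16, 7.80 and 7.85 in the mutant and 6.81, 6.38 and 6.01 in Col-0. At the edge of the level threshold, AT1G52200 was just inside with a lowest Col-0 value of 6.01, and AT5G03380, AT4G20830, AT1G67330 and AT3G02910 followed at 6.03 to 6.19. AT3G56200 and NAI2 at 5.85, AT5G45480 at 5.81, CuAO1 at 5.73 and AT2G29995 at 5.63 were just outside.

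Within a genotype the 45 genes were not all highest or all lowest on the same array. The SD of a gene over 3 arrays ran from 0.04 to 0.60 in the mutant (median 0.26) and from 0.03 to 0.85 in Col-0 (median 0.28), against medians of 0.21 and 0.20 over all probe sets at the Col-0 level of the rule. In the mutant, 26 of the 45 genes (57.8%) had their lowest value in replicate 1, and 48.6% of all tested probe sets did so too. Mutant replicate 2 was the highest mutant array for 20 of the 45 (44.4%), beside 38.2% of all tested probe sets. In Col-0, 21 of the 45 (46.7%) were lowest in the array labelled Col-0 replicate 1, beside 44.6% of all tested probe sets, while 18 (40%) were highest there, beside 31.3%.

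**Figure D3:**
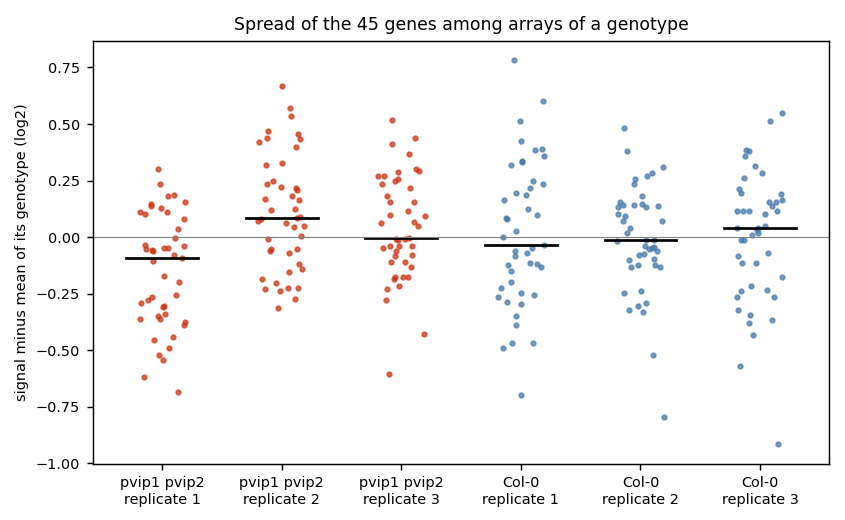
Each point is 1 of the 45 genes on 1 array, as its log2 signal minus the mean of the 3 arrays of that genotype, and black bars are medians. The medians lie between -0.09 in pvip1 pvip2 replicate 1 and 0.09 in pvip1 pvip2 replicate 2, and single genes reach nearly 1 from the mean in Col-0.

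The 45 genes were set beside genes of defence, stress, secretion and metabolism, in 12 lists of 311 loci. Most of these lists hold none of the 45. Of these loci 70 have a probe set named with them alone, and 3 (BIK1, GSTU27 and AT2G41090) are among the 45. The other tested members were 50 probe sets of 49 loci, with a median change of 0.41 against -0.05 over all tested probe sets. Of them 15 (30%) were called higher and 4 (8%) lower by limma, against 10.4% higher and 10.2% lower over all. Since the lists were chosen with earlier results of these data known, these shares and the median are a description and not a test. With the replicate block, which takes the replicate number as a term, 22 were higher and 8 lower, against 14.5% and 15.8% of all tested probe sets, together 30.3%. The count of 19 calls became 11 without Col-0 replicate 2, and 12 without Col-0 replicate 3 or without either mutant replicate 2 or mutant replicate 3. On the first fluidics station alone, with 2 arrays of each genotype, 8 were called.

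In pattern perception, where 3 of 22 loci were measured, both tested genes other than BIK1 rose. AT1G61360, an S-domain receptor kinase, was at 7.07, 7.25 and 7.81 in the mutant and 4.65, 5.05 and 5.24 in Col-0, a rise of 2.40 (SE 0.25, limma adjusted p = 0.0006877). EFR, the receptor of a bacterial elongation factor peptide, rose by 0.95 (SE 0.27, limma adjusted p = 0.04404). The EFR call was lost without any single Col-0 array or without pvip1 pvip2 replicate 2 or 3 (adjusted p from 0.062 to 0.119). Of 3 salicylate and systemic defence genes, WRKY53, which regulates leaf senescence and defence genes, rose by 1.27 (SE 0.21, limma adjusted p = 0.005013). SAG101, a partner of EDS1 in immune signalling, stood at 1.09 (SE 0.42, limma adjusted p = 0.1094). RING1 went the other way at -0.47 (SE 0.25, limma adjusted p = 0.2348), and only 3 of the 26 salicylate loci were measured. Among 9 senescence and autophagy genes, WRKY6 rose by 2.36 (SE 0.19, limma adjusted p = 0.0002321) and WRKY53 was the other one called, while 6 ATG8 genes lay between -0.70 and 0.60 and none of these was called. With the replicate block 4 genes of that list were called higher and 1 lower, and the salicylate list had 2 called higher.

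Tested calcium genes were called in both directions, and glutathione S-transferase genes outside the 45 only lower. Of 5 tested calcium genes besides AT2G41090, the calmodulin-like AT1G18210 rose by 0.94 (SE 0.17, limma adjusted p = 0.008522) and AT2G41410 by 0.95 (SE 0.22, limma adjusted p = 0.01941). AT1G73630 fell, from 4.94, 5.19 and 5.47 in Col-0 to 2.87, 2.73 and 2.53 in the mutant, a change of -2.49 (SE 0.20, limma adjusted p = 0.0002321), and AT2G46600 fell at -0.95 (SE 0.21, limma adjusted p = 0.01682). With the replicate block 2 were called higher and 3 lower, the added one being AT4G27280 at -0.72 (limma adjusted p = 0.0714 without the block and 0.007856 with it). Of 2 further calmodulin-like genes, grouped by symbol after the values were seen, CML42 rose by 1.55 (SE 0.27, limma adjusted p = 0.006358) and CML30 fell at -2.14 (SE 0.22, limma adjusted p = 0.0006877). The call of AT2G41410 was lost without Col-0 replicate 2 or 3 or pvip1 pvip2 replicate 2 or 3 (adjusted p from 0.0514 to 0.0741), and that of AT2G46600 without Col-0 replicate 2 or 3 (0.0577 to 0.0681). None of the 3 tested glutathione S-transferases other than GSTU27 was higher. GSTU20 fell from 9.99, 10.11 and 9.90 to 8.62, 8.70 and 8.84, a change of -1.28 (SE 0.13, limma adjusted p = 0.0006877). GSTU16 and GSTU18 stood at -0.60 and -0.77 and were called lower with the replicate block, which raised the count of that list from 1 to 3.

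Genes that feed aromatic compounds were all called higher. CCR2, a cinnamoyl-CoA reductase of the phenylpropanoid pathway, rose by 1.75 (SE 0.23, limma adjusted p = 0.002038). AT1G22410, a DAHP synthase at the entry of the shikimate pathway, rose by 1.05 (SE 0.22, limma adjusted p = 0.01306), and AT2G04400, which makes indole-3-glycerol phosphate for tryptophan, by 0.86 (SE 0.20, limma adjusted p = 0.02137). The call of AT1G22410 was lost without Col-0 replicate 2 (adjusted p = 0.055), and that of AT2G04400 without the array labelled Col-0 replicate 1, Col-0 replicate 3 or pvip1 pvip2 replicate 2 or 3 (0.0507 to 0.0761). Only 3 of the 30 loci on that list were tested.

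The endoplasmic reticulum list had 15 tested probe sets, of 14 of its 43 loci. Its genes serve the folding, translocation and glycosylation of secreted proteins, the route that inhibitors and lipid transfer proteins take. Of these probe sets 3 were called higher and 0 lower, or 7 higher with the replicate block, and the median change was 0.41. Both probe sets of AT3G48570, a gamma subunit of the Sec61 channel, rose, by 1.18 (SE 0.23, limma adjusted p = 0.01017) and by 1.05 (SE 0.30, limma adjusted p = 0.04397). AT5G14030, of the translocon-associated proteins, rose by 0.50 (SE 0.12, limma adjusted p = 0.02365). The lower call of AT3G48570 was lost without any single array except Col-0 replicate 3 (adjusted p from 0.0628 to 0.141), and that of AT5G14030 without Col-0 replicate 2 or 3 or pvip1 pvip2 replicate 2 or 3 (0.0605 to 0.0908). CRT1b, a calreticulin chaperone, stood at 0.41 (limma adjusted p = 0.125) and was called higher with the replicate block (limma adjusted p = 0.04966).

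In the remaining lists fewer genes could be set beside the 45. Of 3 tested genes of secretion at the plasma membrane, AT2G27080 and AT4G01410, both of the NDR1/HIN1-like family, rose by 1.26 (SE 0.19, limma adjusted p = 0.003748) and 0.78 (SE 0.21, limma adjusted p = 0.03759). The call of AT4G01410 was lost without any single Col-0 array or pvip1 pvip2 replicate 2 or 3 (0.0684 to 0.11). Of 6 genes of mitochondrial stress, AT2G41730, on a probe set of a type that can match other transcripts, rose by 1.91 (SE 0.25, limma adjusted p = 0.001853) and NDB1, an external NADPH dehydrogenase, fell at -0.58 (SE 0.16, limma adjusted p = 0.04131). The NDB1 call was lost without any single array except the one labelled Col-0 replicate 1 (0.0842 to 0.118). EIN3, the only tested gene of jasmonate and ethylene, stood at 0.06, and neither of 2 tested sugar and peptide transport genes was called, although 1 was higher with the replicate block. The cysteine-rich receptor-like kinases had no tested member.

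**Figure D4:**
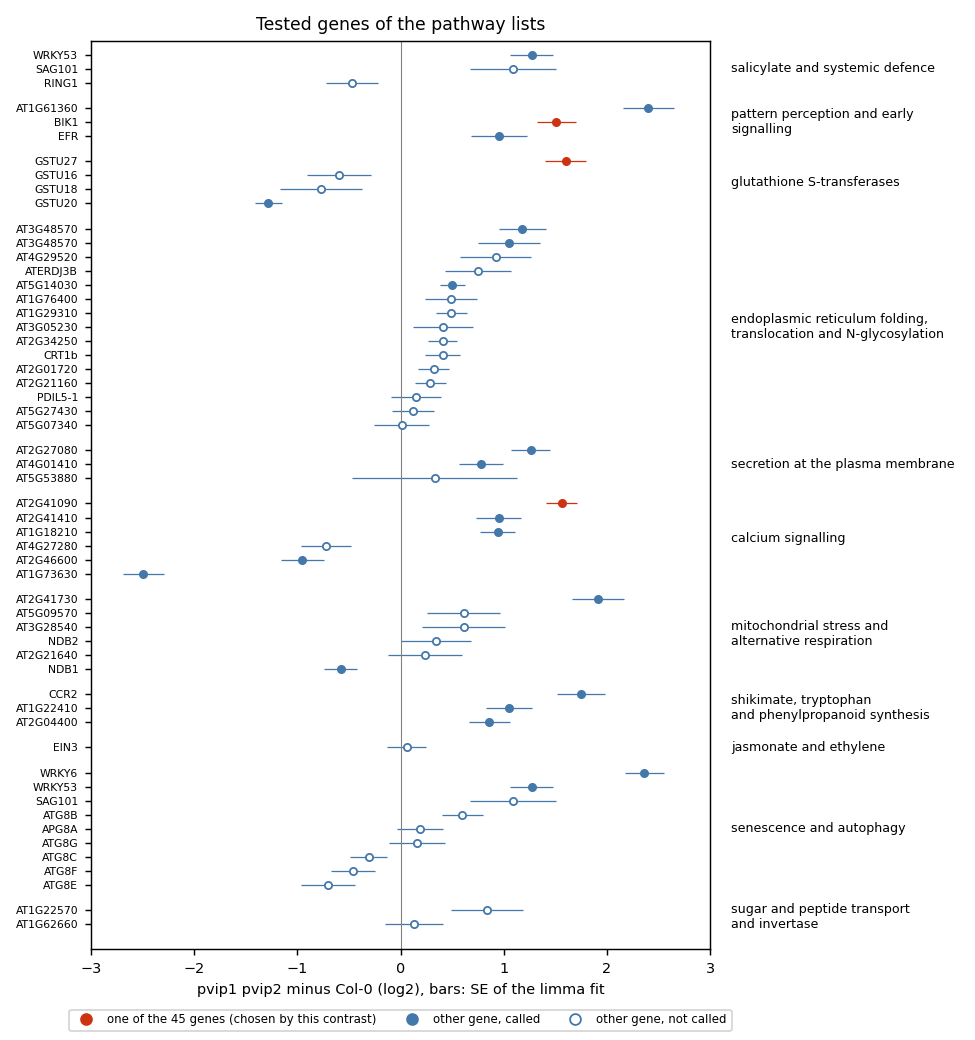
Change in log2 signal, pvip1 pvip2 minus Col-0, of every tested probe set of the pathway lists, with the SE of the limma fit as bars. Filled symbols were called at an adjusted p under 0.05, and red marks BIK1, GSTU27 and AT2G41090, which this contrast chose. WRKY53 and SAG101 stand in 2 lists.

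Few markers of other cell types and states could be tested. Of 3 callus and wound markers, AT1G36060 rose by 1.25 (SE 0.22, limma adjusted p = 0.006358) and AT5G61890 by 0.71 (SE 0.21, limma adjusted p = 0.04959), both from Col-0 signals under 5. The latter call was lost without any single array except the one labelled Col-0 replicate 1 (0.0732 to 0.158). The summed signal of the 2 measured callus markers was 5.50 to 5.93 (log2) in the mutant and 4.69 to 5.02 in Col-0, and its part in the values of the 45 genes was not tested. Photosynthesis genes of the mesophyll, 2 of 13 measured, summed to 12.43 to 13.05 in the mutant and 12.82 to 13.30 in Col-0, and neither was called. The guard cell gene FMA and the leaf gene YAB3 stood at -0.60 and -0.48, not called, although FMA was called lower with the replicate block, as was 1 mesophyll gene. CLV3 of the shoot meristem was near the bottom of the scale on all arrays. TRY of trichomes was at 3.96, 3.31 and 3.48 in the mutant and 4.28, 3.88 and 3.73 in Col-0, and was not tested. Phloem, xylem, seed and embryo markers had no named probe set here.

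The position of the 45 genes was examined through their neighbours in TAIR10.1 gene order. Chromosomes 1 to 5 held 11, 6, 11, 8 and 9 of them, and AT2G38870 with YLS5 and JAL33 with JAL34 were the adjacent pairs. Of the genes next to the 45 that are not among them, 37 probe sets are named with 1 of them alone and 27 were tested. Their median change was -0.13. By limma 5 (18.5%) were called higher and 0 lower, against 10.4% and 10.2% over all tested probe sets, or 18.5% against 20.5% in either direction. With the replicate block 6 were higher and 2 lower.

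Called neighbours were WRKY6 beside the aspartic protease gene AT1G62290, AT4G38540 beside AT4G38550, AT5G45500 beside AT5G45510, AT4G23460 beside AT4G23470 and AT2G39650 beside BIK1. AT4G38540 rose by 1.52 (SE 0.30, limma adjusted p = 0.01099) and AT5G45500 by 1.33 (SE 0.23, limma adjusted p = 0.006823). AT4G23460 and AT2G39650 rose by 0.75 and 0.58 (limma adjusted p = 0.02306 and 0.04833). Their calls were lost without several single arrays, that of AT4G23460 without Col-0 replicate 1 or 2 or pvip1 pvip2 replicate 2 or 3 (0.0533 to 0.0872) and that of AT2G39650 without any single array except the one labelled Col-0 replicate 1 (0.0862 to 0.16).

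Some neighbours are relatives of the gene they adjoin, and their values differed. AT5G45500 and AT5G45510 both encode leucine-rich repeat proteins, and AT5G45500 was at 8.52, 9.24 and 9.24 in the mutant and 7.48, 7.60 and 7.94 in Col-0. AT5G21100, an ascorbate oxidase like its neighbour AT5G21105, was at 6.79, 5.62 and 5.91 in the mutant and 6.96, 6.17 and 6.21 in Col-0, a change of -0.34 (SE 0.34, limma adjusted p = 0.5345). AT4G23670, a major latex protein-like gene beside AT4G23680, was at 9.69, 9.77 and 8.95 against 9.93, 10.24 and 10.42, a change of -0.72 (SE 0.24, limma adjusted p = 0.0703). AT3G19000, an oxygenase beside AT3G19010, stood at 0.47 (limma adjusted p = 0.1505). Signals of close relatives can share labelled RNA on an array, and that part was not tested.

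**Figure D5:**
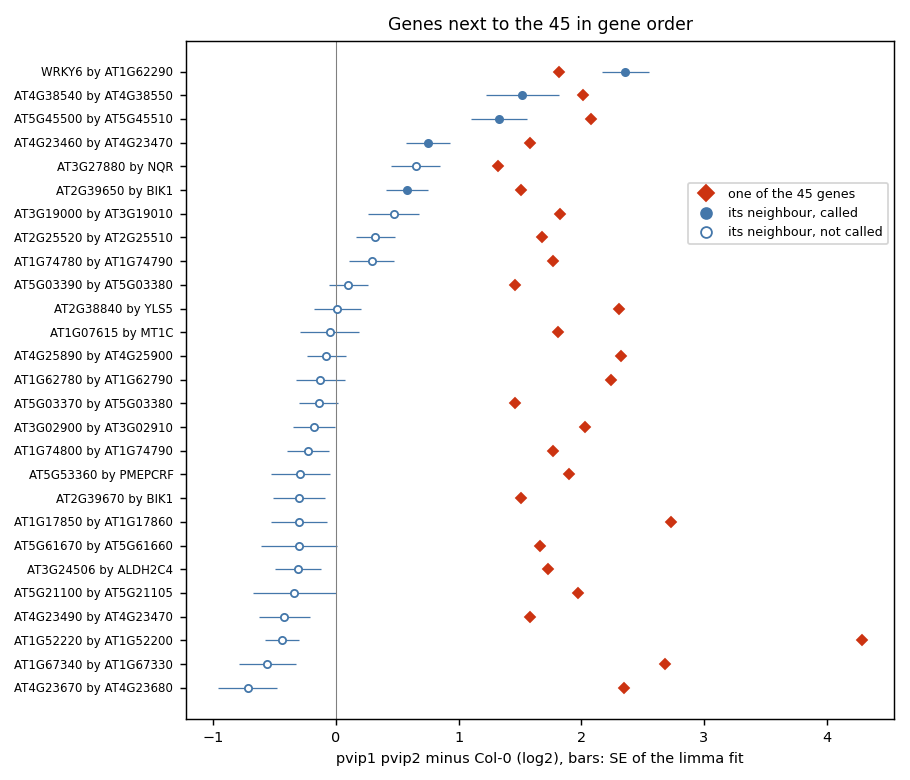
Change in log2 signal of the 27 tested neighbours (circles, with the SE of the limma fit, filled where called) beside that of the gene among the 45 they adjoin (red diamonds). WRKY6 is the highest neighbour at 2.36 and AT4G23670 the lowest at -0.72.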

How the data were processed

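The deposited table gives 1 log2 value per probe set and array. How the authors summarised, background-corrected and normalized these log2 values was not stated in the sources used here; the submitters' processing notes name GCOS, with no version. No further scaling was applied. With 3 arrays per genotype the median SE of a log2 change was 0.20, and this number of arrays sets the precision. Genes were named from the platform annotation and the TAIR10.1 gene table, which held all 45. The 45 genes were found by the rule given in the opening. The functional groups were written from background knowledge of the loci. Members and lists were chosen with earlier results of these data known, and the families grouped by symbol after the values were seen. Values on every array are given for the genes with the 25 widest gaps, the 5 highest Col-0 means and up to 3 per functional group, and for BIK1, AT5G20700 and GTR2 besides.

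Tests left out 64 control probe sets and all others whose mean over the arrays fell below 3.81 (log2), the 40th percentile. Genotype differences were fitted in R 4.3.3 by limma 3.58.1 (lmFit, eBayes with a trend, two-sided, Benjamini-Hochberg adjustment, threshold 0.05), which was tested on simulated data. Nothing in the labels says how separate the biological replicates were, so p-values measure the spread between these samples. As a check of pairing by the labels' replicate numbers, each array's deviations from its genotype's mean were correlated with those of the same-numbered array. The correlations across probe sets were r = 0.592, 0.356 and 0.155, and the numbers were taken to pair the samples. Where the replicate block is not named, SEs, adjusted p-values and calls come from the fit without this pairing. That fit called 2803 of 13648 tested probe sets, and the fit with the block called 4129. Replicate 3 of each genotype ran on the second fluidics station and the others on the first. Promoter sequences were not used here.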

Additional observations from a re-analysis of the deposited data

How the results depend on the processing

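Changes of the 45 genes kept their direction under every alternative run, which the choice of the genes favours. Of their values under alternatives 694 moved by less than 1 SD of the replicates, and the 26 others moved further without changing sign. With a pseudocount of 64 their median change was 1.56 and the range 0.97 to 3.55, and called genes outside the 45 moved as well, ATPMEPCRB from 3.95 to 2.22, AT1G33440 from 2.99 to 0.93, AT1G59740 from 3.07 to 1.81, GTR1 from 1.99 to 1.18, CML42 from 1.55 to 0.83, WRKY6 from 2.36 to 1.11, WRKY53 from 1.27 to 0.36, AT1G61360 from 2.40 to 1.27, AT2G41730 from 1.91 to 0.89, CCR2 from 1.75 to 0.38, EFR from 0.95 to 0.18, AT2G27080 from 1.26 to 0.28, AT1G36060 from 1.25 to 0.28, AT1G73630 from -2.49 to -0.52 and CML30 from -2.14 to -0.70. On the first station alone 42 of the 45 were called. The number of genes meeting the rule depended on its thresholds: 15 at a Col-0 level of 7, 105 at a gap of 0.5, 17 at a gap of 1.5, 28 with a pseudocount of 64, and 103 with unnamed probe sets and all families counted. Leaving out 1 array gave 47 to 58, and leaving out Col-0 replicates 1 and 3 together, an alternative chosen after seeing the data, gave 71, where fewer arrays make the rule easier to meet. With array medians set equal 43 genes met it, 41 of them among the 45, and with quantile normalization 44, of which 43. AT3G16560, AT5G20700, PMEPCRF and AT4G20830 did not meet it with equal medians, nor PMEPCRF and AT4G20830 with quantile normalization. The cause was not tested.

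Of all tested probe sets 2803 were called, 1654 to 2741 without 1 array, 978 on the first station alone, 1826 with a filter at the 60th percentile, where fewer were tested, and 1576 when a 2-fold change was also asked. For the pathway lists the count of 19 became 30 with the replicate block, 8 on the first station alone, 11 with a 2-fold change and 11 to 20 without 1 array. Among the called genes followed outside the 45, 88 values under alternatives lost the call and 445 did not, and none changed sign. Only 45 of 103 probe sets meeting both thresholds could be described, since 53 have no name here and 5 were left out by family. Signals near the bottom of the scale carry no detection call.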
